A study of Mus musculus with 14 samples.

Results

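The clustered and linker histone genes of mouse 2-cell embryos are described here: the genes whose symbols name a linker histone (H1f) or one of the core histones H2A, H2B, H3 and H4 (H2ac, H2bc, H3c, H4c) with a number. They were taken from the count table by symbol alone, and they were 70 of its 56923 genes: 11 linker histone genes, 18 of H2A, 17 of H2B, 12 of H3 and 12 of H4. The read counts of these genes in 14 RNA-seq libraries were compared across 7 conditions. In 9 tests by edgeR, 2 genes passed the threshold. H1f8, the linker histone of the oocyte, fell from the early to the late 2-cell stage both with and without lactate. H3c1 was counted at 43643 and 83390 reads in the libraries labelled with the H3K18R mutant and at 0 to 66 reads in every other library.

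The study asked how lactate, the source of the lactyl group on lysine 18 of histone H3 (H3K18 lactylation), bears on the transcription that starts in the 2-cell embryo. Embryos came from ICR mice of 6 to 8 weeks and were grown in vitro, and each library was made from 5 embryos. Libraries of early 2-cell embryos (E2C) were made 30 h, and those of late 2-cell embryos (L2C) 54 h, after the ovulating hormone hCG. Lactate was withdrawn at 24 h after hCG.

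The E2C G&N and L2C G&N groups had mKSOM medium with 10 mM lactate, 5 µM Gne140, an inhibitor of lactate dehydrogenase, and 50 µM NMN, a precursor of NAD. The E2C G&N-L and L2C G&N-L groups had the same medium and both agents but 0 mM lactate. The L2C G&N-L + Lac-CoA group was treated like L2C G&N-L, with 1 mM lactyl-CoA, the donor of the lactyl group, injected into the zygotes. The study's wording ties 24 h after hCG to the withdrawal of lactate, and the hour of injection is not clear from it. The L2C H3K18R group comes from zygotes given mRNA of H3 whose lysine 18 was changed to arginine, injected at 14 h after hCG per the methods. The L2C WT group carries only the label WT in the titles, and the study describes these embryos as given mRNA of unchanged H3, the counterpart of the mutant. No inhibitor is named for either of these groups. Each group had 2 libraries. The mutant mRNA was added to embryos whose own H3 genes no label describes as altered.

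The labels are not uniform. The titles separate E2C G&N from E2C G&N-L, while the treatment labels of these 4 libraries name Gne140 and NMN for E2C G&N-L and Gne140 alone for E2C G&N, with no word on lactate; the titles were followed. The titles say H3K18R where the column names of the counts say K18A. The extract protocol speaks of 3 replicates per group, and 2 were analysed here. No source used here says whether the libraries of a group came from separate cultures, so that every p-value measures only the spread between these libraries, which may be technical.

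Core histones form the protein spool on which DNA is wound, and a linker histone sits where the DNA enters and leaves it. The clustered histone genes are transcribed in step with DNA replication, and most of their mRNAs end in a stem-loop in place of a poly(A) tail. The stem-loop is bound by the protein Slbp, which accompanies the mRNA through processing and translation. Other linker histones, such as H1f0 and the oocyte's H1f8, are made from polyadenylated mRNAs. The fertilised egg carries a store of maternal histone mRNA and protein, and the embryo's own genes are switched on mainly at the 2-cell stage.

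On the mm39 assembly 55 of the 70 genes lay on chromosome 13 between bases 21899933 and 24118834, and 10 lay on chromosome 3 between bases 96127181 and 96177448. Of the others 2 were on chromosome 6, 2 on chromosome 15 and 1 on chromosome 11. All but 1 were annotated as protein coding, the exception being H2ac14, a transcribed unitary pseudogene. H1f8 (ENSMUSG00000042279.14, chr6:115921899-115927197, plus strand) stood apart from the clusters, whereas H3c1 (ENSMUSG00000069265.3, chr13:23945836-23946369, minus strand) is a gene of 1 exon in the chromosome 13 cluster.

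The stem-loop was looked for as the 16 letters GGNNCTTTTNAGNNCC, on the coding strand, within 300 bases after the stop codon on mm39. It was found in 60 of the 70 genes, or 85.7%, against 16 of 21617 other genes with an annotated stop codon, or 0.074%. By class, it was found in 6 of 11 linker genes, 16 of 18 H2A genes, 16 of 17 H2B genes, 11 of 12 H3 genes and 11 of 12 H4 genes. H2ac14 is counted in the 70 and in the 18 H2A genes, but it has no annotated stop codon and was not searched. It began 22 to 59 bases after the stop codon, with a median of 31. A match of letters in the genome does not show where an mRNA ends, which was not measured. The forms found are shown next, with the 4 bases of the loop in capitals.
H2ac23, chr13:21995068-21995083, plus strand, the form of 39 members including H3c1: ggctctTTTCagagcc
H2bc1, chr13:24117713-24117728, minus strand, the form of 9 members: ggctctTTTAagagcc
H4c4, chr13:23765933-23765948, plus strand, the form of 7 H4 genes: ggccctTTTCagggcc
H4c9, chr13:22225136-22225151, minus strand, the form of 2 H4 genes: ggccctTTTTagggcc
H4c11, chr13:21919607-21919622, plus strand, the form of 2 H4 genes: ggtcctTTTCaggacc
H2ac20, chr3:96127734-96127749, minus strand, the form of 1 gene: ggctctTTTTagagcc

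All 11 H4 stem-loops differed from those of the other classes in the letters of the stem. No such letters were found after the stop codon of H1f0, H1f7, H1f8, H1f9, H1f10, H2ac22, H2bc21, H3c8 or H4c1, and H2ac14 was not searched. H1f8 and H1f0, the 2 members with the highest levels among linker genes, were thus both outside the group of 60. How the cDNA was primed is not given in the sources used here, and its part in the levels of members with a stem-loop was not tested.

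The promoters of H1f8 and of 3 H2A genes described below are shown next, since these 4 were the members whose late libraries all lay on 1 side of the early ones. Each run holds 250 bases before and 50 bases from the start of the gene, taken from RefSeq on GRCm38.p6, an older assembly than the mm39 of the counts, in the direction of the gene. Capitals mark CCAAT on either strand (written ATTGG on the other).
H1f8, chr6:115944681-115944980, plus strand: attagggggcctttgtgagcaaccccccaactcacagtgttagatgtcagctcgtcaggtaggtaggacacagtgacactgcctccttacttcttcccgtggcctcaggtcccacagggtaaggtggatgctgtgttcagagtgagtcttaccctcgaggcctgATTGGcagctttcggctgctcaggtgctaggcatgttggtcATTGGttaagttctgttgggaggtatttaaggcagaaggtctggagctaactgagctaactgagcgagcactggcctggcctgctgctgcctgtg
H2ac11, chr13:22042900-22043199, minus strand: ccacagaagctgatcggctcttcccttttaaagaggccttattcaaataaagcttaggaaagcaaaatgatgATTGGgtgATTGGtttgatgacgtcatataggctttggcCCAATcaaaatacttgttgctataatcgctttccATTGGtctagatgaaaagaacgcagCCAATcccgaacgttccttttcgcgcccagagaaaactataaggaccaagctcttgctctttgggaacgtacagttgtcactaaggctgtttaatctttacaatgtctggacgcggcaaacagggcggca
H2ac23, chr13:21810117-21810416, plus strand: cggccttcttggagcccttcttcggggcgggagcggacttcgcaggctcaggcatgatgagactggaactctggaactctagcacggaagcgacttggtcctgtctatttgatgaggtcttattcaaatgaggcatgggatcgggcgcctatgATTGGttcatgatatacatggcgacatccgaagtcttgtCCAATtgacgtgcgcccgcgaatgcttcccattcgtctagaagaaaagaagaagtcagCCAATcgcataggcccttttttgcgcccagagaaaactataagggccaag
H2ac24, chr13:21833426-21833725, minus strand: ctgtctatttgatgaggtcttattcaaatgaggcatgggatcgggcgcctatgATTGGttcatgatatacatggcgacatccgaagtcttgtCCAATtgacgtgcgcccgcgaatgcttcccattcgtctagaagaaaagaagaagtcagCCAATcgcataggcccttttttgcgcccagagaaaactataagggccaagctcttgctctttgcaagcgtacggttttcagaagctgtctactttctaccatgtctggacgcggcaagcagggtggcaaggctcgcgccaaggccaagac

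The windows of H2ac23 and H2ac24 shared an unbroken run of 200 bases, while H2ac11 shared at most 22 with each. That run closes the printed window of H2ac23 and opens that of H2ac24. These windows were thus identical wherever they cover the same part, and the rest of each has no counterpart in the other. Their RefSeq starts are not placed alike: the start of H2ac24 falls on its ATG, so that its window ends in coding sequence. Of the 70 members 62 had such a window, 63 windows in all, and 32788 windows of other genes served for comparison. CCAAT, on either strand, was in 82.5% of members' windows and in 37.3% of the others. It was in all windows of H2A, H2B and H3 genes, and in 27.3% of those of H4 genes. TATAAA, on either strand, was in 54% against 13.5%, and the octamer ATTTGCAT in 20.6% against 1.7%. The octamer was confined to 35.3% of H2A and 46.7% of H2B windows in this search, and none of the 4 windows printed held it or TATAAA. A match of letters describes the window and not binding.

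The libraries held 20350427 to 61275465 counts. Levels are given as CPM, a gene's counts scaled to a common library total after TMM scaling, which aligns the bulk of genes between libraries. A level of 0 may hide as many as 3 reads, which is 0.0589 to 0.144 CPM depending on the library, a limit for counting error alone. Levels are relative to the rest of the library, and fewer cells of a type cannot be told apart from less RNA per cell. Late 2-cell marker genes (13 found) summed to 285 to 440 CPM in early and 2560 to 4900 CPM in late libraries, with 1 or 2 of them at 0 in early libraries and none in late. Markers of cumulus cells, which surround the egg, summed to 8.63 to 42.3 CPM, with 6 to 12 of 15 at 0.

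The members took 0.0115% to 0.415% of all counts. Of the 70, 62 had a count in at least 1 library, 18 had one in all 14 and 8 had none. H4 was the class in which every gene had a count, while 3 linker genes, 2 of H2A, 1 of H2B and 2 of H3 had no count in any library. The sequences limit what a count means: 36 of the 70 shared at least 50% of their 50-base stretches with another gene, among them 15 of H2A, 8 of H2B, 8 of H3, 5 of H4 and no linker gene. How reads that match several genes were counted, and whether strand was used, is not given in the sources used here, so that counts of near-identical copies are uncertain. The core genes without a count, H2ac18, H2ac19, H2bc18, H3c13 and H3c14, had 100% of their 50-base stretches in another gene. So had H2ac14, with 52 counts over the 14 libraries. A count of 0 there need not mean that the gene was silent, and whether its reads went uncounted was not tested.

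Each comparison was fitted on all genes of its 4 libraries with edgeR's quasi-likelihood test, two-sided, and a gene is said to have changed at a Benjamini-Hochberg adjusted p under 0.05 over all genes tested. Log2 fold changes are given with their standard error (SE). Several comparisons share libraries, those of L2C G&N most often, and their results are not independent of each other.

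Linker histones come first. H1f8 was far above the other linker genes per kilobase of transcript, with a mean over the 14 libraries of 375 CPM per kb, against 22 for H1f0 and 15.5 for H1f1. In early libraries it stood at 1440 and 1420 CPM in E2C G&N and at 1040 and 1010 CPM in E2C G&N-L. In late libraries it stood at 221 and 245 CPM in L2C G&N, 148 and 263 in L2C G&N-L, 75.3 and 146 in L2C G&N-L + Lac-CoA, 48.4 and 108 in L2C H3K18R, and 89.3 and 50.5 in L2C WT. The 4 early libraries all lay above the 10 late ones, with no overlap. The same held for 6.12% of the 35149 genes with a count.

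From E2C G&N to L2C G&N, H1f8 fell by 2.69 on the log2 scale (SE 0.245, edgeR adjusted p = 0.0069). It was the only one of 36 members tested that changed (2.78%), where 13.7% of all 19443 genes tested did. Without lactate, from E2C G&N-L to L2C G&N-L, it fell by 2.38 (SE 0.296, edgeR adjusted p = 0.0137), again as 1 of 35 members (2.86%), against 11.8% of 18604 genes. Without L2C G&N replicate 1 or replicate 2, with 1 late library left, the first of these adjusted p-values was 0.0584 or 0.0561 at a similar log2 fold change of -2.64 or -2.77. The summed level of oocyte markers moved in the same direction: 12 of them summed to 20900 to 28100 CPM in early libraries, and to 13100 and 15000 in L2C G&N and 16800 and 19200 in L2C G&N-L, with none at 0. The list was mixed without lactate: 4 of 12 had positive fitted values there and 1 of 12 with lactate. The medians were -0.38 without lactate and -1.15 with it, against 0.15 and 0.08 over all genes. Of these markers, 6 of 12 fell past the threshold with lactate and 3 of 12 without it, against 5.47% and 5.87% of all genes tested that fell, and their part in the change of H1f8 was not tested.

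H1f8 made up 88.4% to 91.4% of all member counts in the early libraries. In L2C G&N the share was 59% and 60.5%, in L2C G&N-L 48.6% and 57.1%, in L2C G&N-L + Lac-CoA 30% and 48%, and in L2C WT 51.1% and 44.5%. It was 2.2% and 2.79% in L2C H3K18R, where H3c1 took most of the member counts.

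H1f0, a linker histone typical of cells that have stopped dividing, was steadier. It stood at 59 and 51.7 CPM in E2C G&N, 59.3 and 49.6 in E2C G&N-L, 57.1 and 38.3 in L2C G&N, 45.9 and 53.6 in L2C G&N-L, and 58.8 and 67.5 in L2C G&N-L + Lac-CoA. The H3K18R and WT libraries were lower, at 15.4 and 36.8 CPM in L2C H3K18R and 26.5 and 15 in L2C WT. Among the groups with inhibitor, early and late ranges overlapped. In L2C WT against L2C G&N its log2 fold change was -1.26 (SE 0.429, edgeR adjusted p = 0.131).

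H1f1, a linker gene of the chromosome 13 cluster, stood at 36 and 14.4 CPM in E2C G&N, 17.6 and 14.7 in E2C G&N-L, 8.57 and 13.1 in L2C G&N, and 10.2 and 14.8 in L2C G&N-L. In the other late groups it was at 6.92 and 6.82 (L2C G&N-L + Lac-CoA), 2.87 and 3.11 (L2C H3K18R), and 7.3 and 4.69 CPM (L2C WT). The early and late libraries with lactate did not overlap, but the log2 fold change of -1.25 (SE 0.552) had an edgeR adjusted p of 0.182.

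H1f5, another clustered linker gene, had 12 and 12 counts in E2C G&N and 0 and 16 in E2C G&N-L. In late libraries it had 200 and 99 counts in L2C G&N (5.47 and 2.27 CPM), 60 and 8 in L2C G&N-L, 55 and 2 in L2C G&N-L + Lac-CoA, and 76 and 228 in L2C WT. It stood at 3.02 and 4.03 CPM in L2C H3K18R. The late level was thus above the early one in L2C G&N, L2C H3K18R and L2C WT, and spread widely between the libraries of the lactate-free groups. The stage change with lactate was 3.84 (SE 1.17, edgeR adjusted p = 0.0762).

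**Figure D1:**
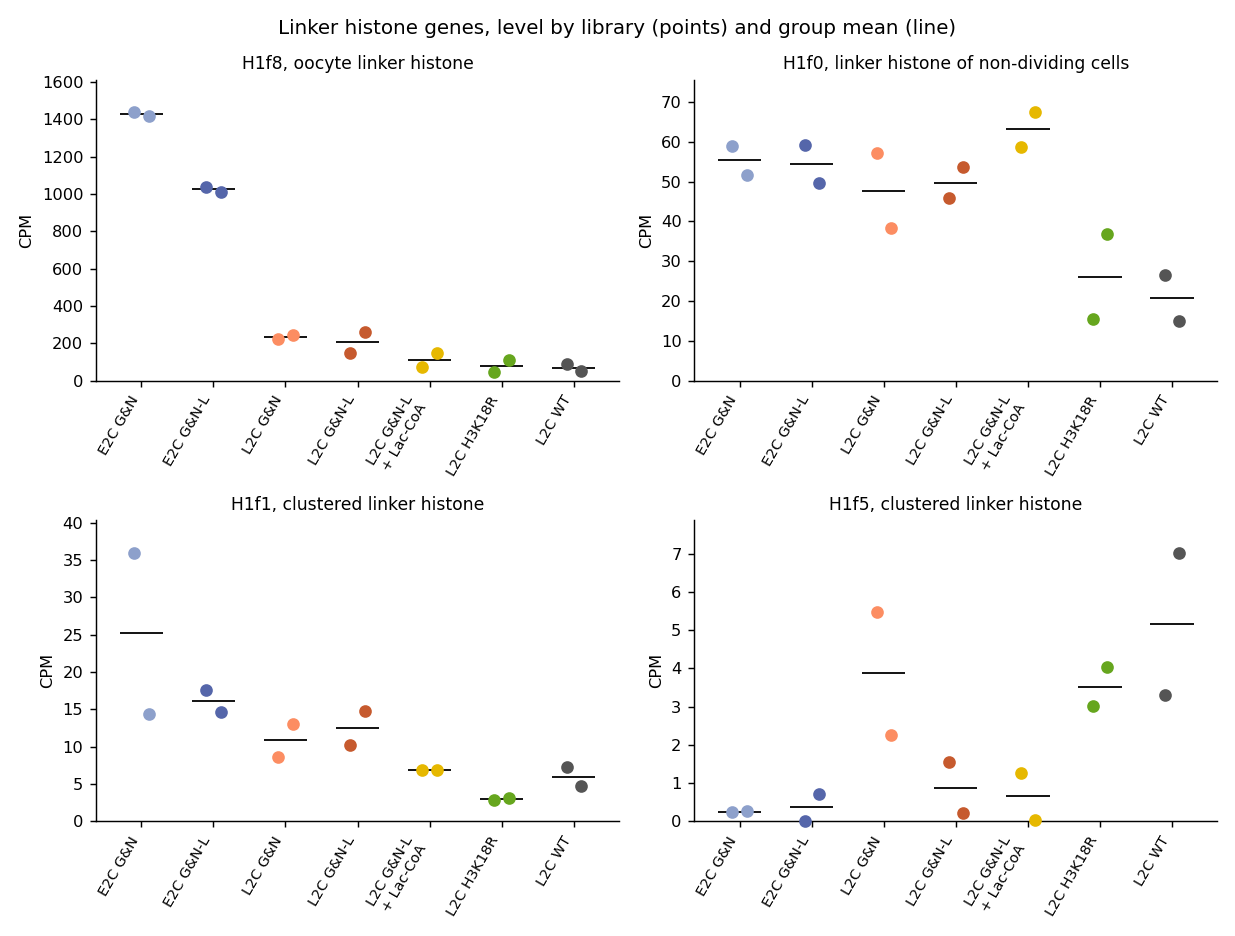
Level (CPM, linear axis from 0) of 4 linker histone genes in each of the 14 libraries (points, 2 per group) with the group mean (line). H1f8 lies between 1010 and 1440 CPM in the 4 early libraries and at or under 263 CPM in the 10 late ones, while H1f0 lies between 38.3 and 67.5 CPM in all libraries with inhibitor.

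The remaining linker genes were scarce. H1f2 had 19 and 22 counts in E2C G&N, 0 in both libraries of E2C G&N-L, L2C G&N and L2C WT, 23 and 28 in L2C G&N-L, 0 and 48 in L2C G&N-L + Lac-CoA, and 18 and 20 in L2C H3K18R. H1f3 had 125 and 15 counts in E2C G&N and at most 1.92 CPM elsewhere. H1f4 had 26 and 22 counts in E2C G&N, 54 and 0 in E2C G&N-L, 2 and 0 in L2C G&N, 0 and 11 in L2C G&N-L, 7 and 2 in L2C H3K18R, and none in the other groups. These clustered genes were present in some libraries of a group and at 0 in others, so that a group mean says little about them. H1f10, a linker gene outside the clusters, ranged from 0 to 0.848 CPM. H1f6, H1f7 and H1f9, which are known from the male germ line, had no count.

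In the H2A class 3 genes separated the early from the late libraries. H2ac23, a gene of 1 exon, had 7 and 9 counts in E2C G&N and 7 and 1 in E2C G&N-L, and stood at 3.34 and 4.2 CPM in L2C G&N (122 and 183 counts) and 1.95 and 1.25 in L2C G&N-L (75 and 48 counts). In the other late groups it was at 3.98 and 3.39 (L2C G&N-L + Lac-CoA), 3.31 and 1.27 (L2C H3K18R), and 4.17 and 4.78 CPM (L2C WT). H2ac24, its near-identical copy, had 8 and 6 counts in E2C G&N, 10 and 0 in E2C G&N-L, 86 and 206 in L2C G&N and 66 and 74 in L2C G&N-L. It stood at 3.36 and 2.37 CPM in L2C G&N-L + Lac-CoA, 2.01 and 2.28 in L2C H3K18R, and 5.78 and 2.22 in L2C WT. Both genes were at or under 0.252 CPM in every early library and at or above 1.25 CPM in every late one.

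H2ac11, the third gene of this kind, had 20 and 4 counts in E2C G&N, 13 and 3 in E2C G&N-L, 157 and 170 in L2C G&N (4.3 and 3.9 CPM) and 55 and 83 in L2C G&N-L (1.43 and 2.17 CPM). It stood at 3.77 and 5.12 CPM in L2C G&N-L + Lac-CoA, 2.11 and 1.31 in L2C H3K18R and 2.17 and 4.22 in L2C WT. In H2ac11, H2ac23 and H2ac24, and in no other member, all 10 late libraries lay above all 4 early ones, where 8.45% of the 35149 genes with a count had such a separation (4.84% of the 62 members with a count). The sequences overlap: H2ac23 and H2ac24 had 93.5% and 93.1% of their 50-base stretches in another gene and H2ac11 78.9%, mainly in each other, so that the 3 counts are not independent. H2ac11 and H2ac23 also shared stretches with H2ac6, H2ac7 and H2ac12, so that a sum of the 3 may miss or repeat shared reads.

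Summed, they stood at 0.686 and 0.432 CPM in E2C G&N and 0.756 and 0.181 in E2C G&N-L. In late libraries the sum was 9.99 and 12.8 CPM in L2C G&N, 5.1 and 5.35 in L2C G&N-L, 11.1 and 10.9 in L2C G&N-L + Lac-CoA, 7.43 and 4.86 in L2C H3K18R, and 12.1 and 11.2 in L2C WT. The lactate-free late libraries lay below those of L2C G&N, L2C G&N-L + Lac-CoA and L2C WT, a set picked after its values were seen and given without a test. Fitted singly, H2ac11 had a log2 difference of -1.15 (SE 0.836, edgeR adjusted p = 0.742) between L2C G&N-L and L2C G&N, and of 1.26 (SE 0.846, edgeR adjusted p = 0.644) between L2C G&N-L + Lac-CoA and L2C G&N-L, neither of which passed the threshold.

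The fitted stage change with lactate was 4.35 for H2ac23 (SE 1.16, edgeR adjusted p = 0.0621) and 4.5 for H2ac24 (SE 1.21, edgeR adjusted p = 0.0628). That of H2ac11 was 4.05 (SE 1.22, edgeR adjusted p = 0.0751) and that of H2ac20, in the chromosome 3 cluster, 3.97 (SE 1.6, edgeR adjusted p = 0.148). None of the 4 was past the threshold. By a looser criterion, an unadjusted p under 0.05 together with a difference of more than 0.5 on the log2 scale, 4 members were higher with lactate (11.1%, against 19.8% of all genes) and 2 were lower (5.56%, against 14.6%), 6 of 36 or 16.7% in all, against 34.4%. Without lactate 7 of 35 members (20%) met it, against 32.2% of all genes. The fold condition removed no member in any of the tests, so that these are also the counts at the unadjusted p alone. DESeq2 called 6 of 36 members with lactate (16.7%, against 30.5% of all genes), H1f8, H1f5, H2ac11, H2ac20, H2ac23 and H2ac24. Without lactate the fitted change was 3.74 for H2ac23 (SE 1.46, edgeR adjusted p = 0.151) and 2.88 for H2ac11 (SE 1.3, edgeR adjusted p = 0.208). The largest of an H2A gene there was 5.57 for H2ac22 (SE 1.74), at 1 and 0 counts in E2C G&N-L and 26 and 41 in L2C G&N-L. In the H2B class, H2bc7 had 0 and 0 counts in E2C G&N-L and 33 and 11 in L2C G&N-L, at least 5.41-fold higher. Neither H2ac22 nor H2bc7 passed the threshold, and neither was tested with lactate.

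H2ac1, known from the testis and oocyte, went the other way. It stood at 4.2 and 6.76 CPM in E2C G&N, 8.26 and 5.35 in E2C G&N-L, 2.3 and 2.09 in L2C G&N, 6.94 and 6.55 in L2C G&N-L, and 4.53 and 1.82 in L2C G&N-L + Lac-CoA. It was lowest in L2C H3K18R (0.287 and 0.614 CPM) and L2C WT (1.13 and 0.216 CPM). With lactate the late libraries lay below the early ones, and without lactate the ranges overlapped. The difference between L2C G&N-L and L2C G&N was 1.67 (SE 0.668, edgeR adjusted p = 0.42), and that of the stage change with lactate -1.42 (SE 0.791). Of the other H2A genes, 2 had no count in any library, and apart from H2ac20 the rest had means over the 14 libraries of at most 0.524 CPM.

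Many H2A genes of these clusters are paired head to head with an H2B gene. Of 18, 12 had an H2B partner on the other strand whose start site was within 600 bases, without overlap of the genes. H2ac6 and H2bc4, on opposite strands but overlapping at their starts, were not counted. H2ac11 and H2bc11 are 270 bases apart by the gene starts annotated on mm39. Their promoter windows, set on the RefSeq starts of GRCm38.p6, overlap by 252 bases, so that the 2 numbers rest on different start sites. With lactate the fitted stage change was 4.05 for H2ac11 and -0.7 for H2bc11 (SE 0.746), and without lactate 2.88 and 0.07 (SE 0.853). The H2A gene of the pair was low in early libraries while its H2B neighbour was not, at 4.22 and 5.57 CPM in E2C G&N and 3.75 and 2.31 in E2C G&N-L.

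The partners of H2ac23 and H2ac24 had fewer counts than these genes. H2ac23 had 1121 counts over the 14 libraries against 85 for H2bc23, 266 bases away on mm39. H2ac24 had 1004 against 108 for H2bc24, 234 bases away. The promoter windows of H2ac23 and H2bc23, set on RefSeq starts of GRCm38.p6 and not on the mm39 starts, overlap by 267 bases. H2bc23 was at or under 0.506 CPM in every library, and H2bc24 reached 1.73 CPM (56 counts) in L2C WT replicate 2. H2bc24 held 97.7% of the 50-base stretches of H2bc23, and H2bc23 88.9% of those of H2bc24, so that their counts are uncertain. In contrast, H2ac1 and H2bc1, 306 bases apart, had 1979 and 2420 counts, with a stage change with lactate of -1.42 and 0.08.

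**Figure D2:**
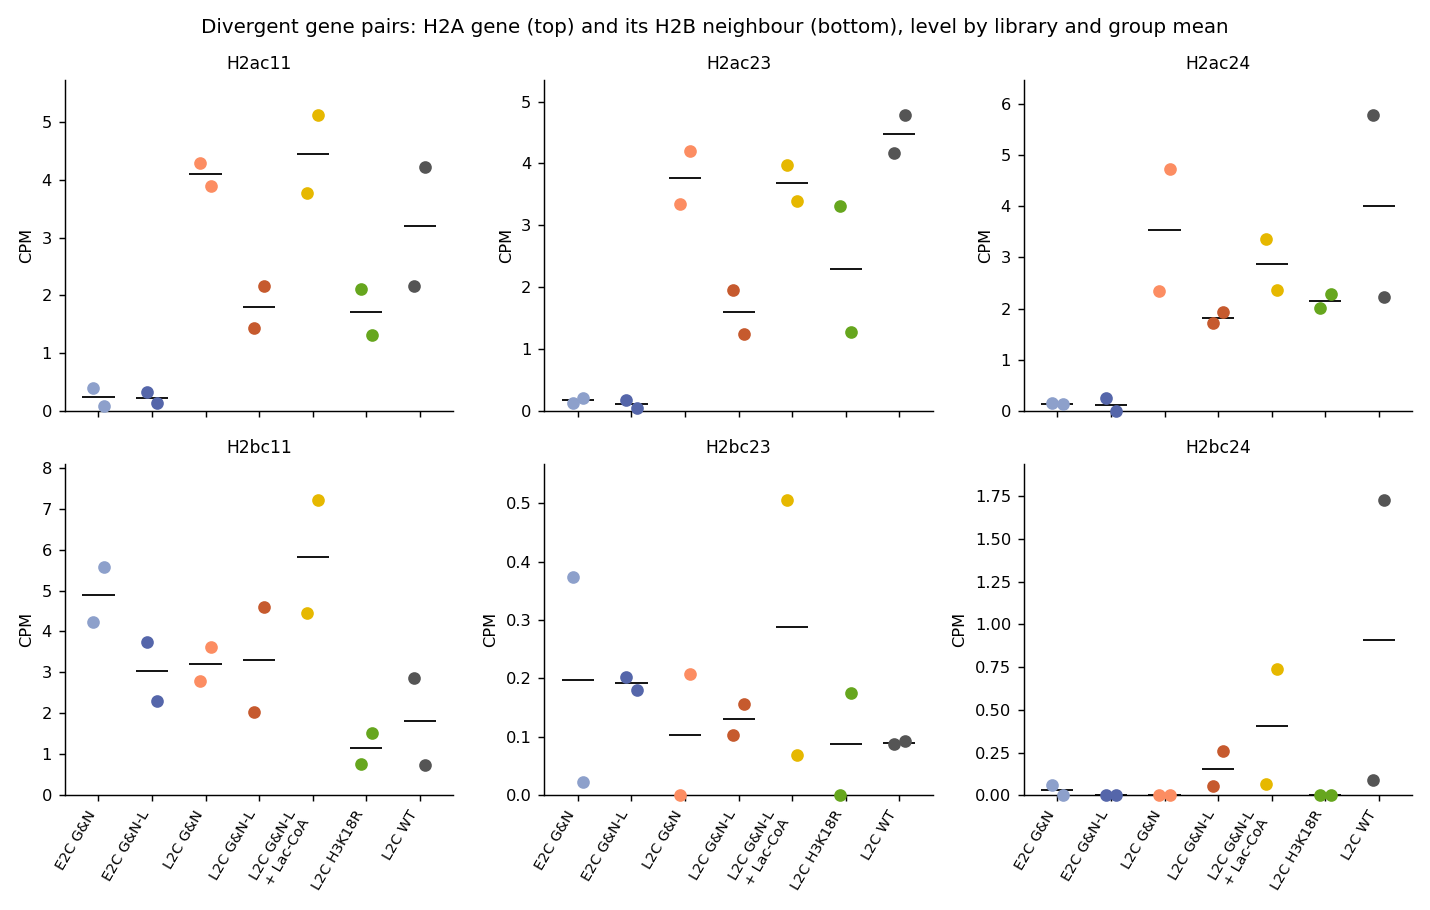
Level (CPM, linear axes from 0 that differ between panels) of 3 H2A genes and their head-to-head H2B neighbours in each library (points, 2 per group) with the group mean (line). The 3 H2A genes lie at or under 0.392 CPM in early libraries and at or above 1.25 CPM in late ones, whereas H2bc11 lies at 2.31 to 5.57 CPM in the early libraries.

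H2bc1, H2bc4 and H2bc11 had the highest mean CPM of the H2B class. H2bc1, a testis-type H2B, stood at 6.18 and 4.28 CPM in E2C G&N, 5.17 and 7.12 in E2C G&N-L, 4.79 and 6.73 in L2C G&N, and 4.76 and 8.72 in L2C G&N-L. It was at 4.53 and 3.94 in L2C G&N-L + Lac-CoA, 1.53 and 2.76 in L2C H3K18R, and 2.74 and 1.36 in L2C WT. Its early and late ranges overlapped in the groups with inhibitor, and the H3K18R and WT libraries lay below those of L2C G&N without overlap.

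H2bc4 stood at 6.89 and 6.44 CPM in E2C G&N, 8.89 and 5.8 in E2C G&N-L, 3.83 and 3.9 in L2C G&N, 7.46 and 4.51 in L2C G&N-L and 3.27 and 2.1 in L2C G&N-L + Lac-CoA. In L2C H3K18R it was at 0.431 and 2.5, and in L2C WT at 3.39 and 3.7 CPM. The Lac-CoA libraries lay below the lactate-free ones, with a log2 difference of -1.21 (SE 0.755, edgeR adjusted p = 0.604), which did not pass the threshold. H2bc11 ranged from 0.74 to 7.22 CPM over the 10 late libraries, around its early levels. Of the others, 1 H2B gene had no count in any library, and 13 had means of 0.0414 to 2.18 CPM.

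The H3 genes were low in every group but L2C H3K18R. H3c1 had 23 and 1 counts in E2C G&N, 11 and 6 in E2C G&N-L, 6 and 2 in L2C G&N, 66 and 30 in L2C G&N-L, 24 and 0 in L2C G&N-L + Lac-CoA, and 4 and 3 in L2C WT. In L2C H3K18R it had 43643 and 83390 counts, 2090 and 3650 CPM, or 0.214% and 0.393% of all counts of the library. Its log2 fold change over L2C WT was 14.4 (SE 0.646, edgeR adjusted p = 0.022), a ratio that rests on 7 counts in WT. H3c1 was the only one of 17704 genes tested, and so of 32 members, that changed in this comparison, a share of 0.00565%. Without L2C WT replicate 2 the adjusted p was 0.0861.

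These reads may come from the injected mRNA rather than from the embryo's gene. The methods name templates for mutant and unchanged H3.1, H3.2 and H3.3, but their sequences, and so how close they are to H3c1, are not given in the sources used here, and the counts of the table do not separate the 2 sources. The libraries labelled WT, which the study describes as given mRNA of unchanged H3, held 4 and 3 reads of H3c1. Among groups for which no injected mRNA is named, L2C G&N held 6 and 2 and L2C G&N-L 66 and 30.

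Other H3 genes were counted beside H3c1 in the H3K18R libraries. H3c10 had 60 and 94 counts against 0 and 0 in L2C WT, at least 31.4-fold higher, and H3c11 had 53 and 73 against 0 and 0, at least 25.8-fold higher. H3c4 had 17 and 23 against 0 and 0, at least 8.2-fold higher. Each bound sets the WT level at the limit of 3 counts per library. The edgeR adjusted p was 0.734 for H3c10 and for H3c11, so that neither was called, while DESeq2 called both and H3c1, 3 of 32 members (9.38%), against 0.678% of all genes.

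The counts of H3c10 were 0.137% and 0.113% of those of H3c1 in the same libraries, and those of H3c11 0.121% and 0.0875%. The genes share sequence: 60.5% of the 50-base stretches of H3c10 and 50.6% of those of H3c11 occur in H3c1, and 49.5% of those of H3c1 occur in some other gene. Reads of 1 copy counted at another were not tested for. H3c3 had 26 and 60 counts in H3K18R against 11 and 9 in WT, H3c6 had 14 and 35 against 7 and 16, H3c7 10 and 62 against 58 and 27, and H3c8 28 and 71 against 21 and 77. In CPM the groups overlapped for H3c7 and H3c8, and the H3K18R libraries lay above WT for H3c3 and H3c6. By the looser criterion 5 of 32 members (15.6%) were higher and none lower in H3K18R, against 3.77% of all genes that were higher and 6.44% in either direction. Of the 5, 4 were H3c1, H3c4, H3c10 and H3c11, and the fifth was the linker gene H1f2, at 18 and 20 counts against 0 and 0.

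**Figure D3:**
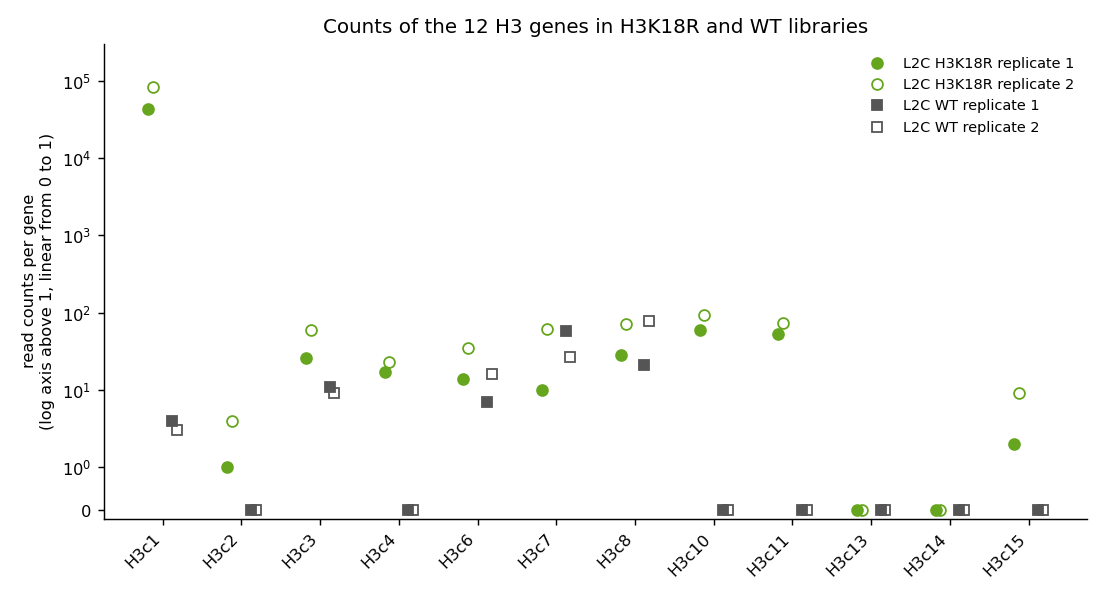
Read counts of the 12 H3 genes in the 2 H3K18R libraries (green circles, filled for replicate 1 and open for replicate 2) and the 2 WT libraries (grey squares), on an axis that is logarithmic above 1 and linear from 0 to 1. H3c1 stands at 43643 and 83390 counts in H3K18R and at 4 and 3 in WT, and the other H3 genes are at or under 94 counts in all 4 libraries.

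Per kilobase, H3c7 and H3c8 followed H3c1 in the H3 class, with means over the 14 libraries of 3.28 and 3.08 CPM per kb. H3c7 stood at 6.32 and 5 CPM in E2C G&N, 4.13 and 1.99 in E2C G&N-L, 5.72 and 4.22 in L2C G&N, 7.12 and 5.82 in L2C G&N-L, and 8.3 and 2.74 in L2C G&N-L + Lac-CoA. H3c8 stood at 1.79 and 1.09, 0.831 and 1.09, 0 and 2.32, 0.676 and 1.23, and 2.09 and 3.97 CPM in the same 5 groups. Neither gene separated the stages. H3c13 and H3c14 had no count in any library. Summed over the 11 H3 genes other than H3c1, the level was 10.1 and 18.9 CPM in L2C H3K18R against 4.22 and 3.98 in L2C WT, and 4.99 to 11.9 in the 10 other libraries.

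Per kilobase, H4c4 and H4c3 had means over the 14 libraries of 12.2 and 10.9 CPM per kb, beside 12 for H2bc1, 9.35 for H2ac1 and 4.79 for H2ac23. H4c4 (chr13:23765581-23766718) stood at 14.3 and 17.3 CPM in E2C G&N, 7.71 and 5.35 in E2C G&N-L, 17.4 and 30.4 in L2C G&N, 18.8 and 30.7 in L2C G&N-L, and 25.2 and 10.9 in L2C G&N-L + Lac-CoA. It stood at 4.31 and 4.21 in L2C H3K18R and 4.35 and 2.84 in L2C WT. The H3K18R and WT libraries were below every library with inhibitor. Without lactate the late libraries lay above the early ones, at a log2 fold change of 1.86 (SE 0.438, edgeR adjusted p = 0.0562).

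H4c3 (chr13:23881618-23882437) stood at 6.3 and 6.76 CPM in E2C G&N, 5.85 and 3.85 in E2C G&N-L, 11.2 and 12.6 in L2C G&N, 20.4 and 15.2 in L2C G&N-L, 16.9 and 10.4 in L2C G&N-L + Lac-CoA, 2.64 and 4.87 in L2C H3K18R, and 5.96 and 2.62 in L2C WT. Its stage change without lactate was 1.83 (SE 0.468, edgeR adjusted p = 0.0671). Neither H4c4 nor H4c3 passed the threshold. DESeq2 called both and H1f8, 3 of 35 members (8.57%), against 27.9% of all genes. Without lactate all 7 H4 genes tested had a positive fitted stage change, as had 10074 of all 18604 genes. H4 genes share sequence, so that these signs are not independent. The median of the 7 was 1.51 against 0.15 over all genes, and with lactate the median of 9 H4 genes was 0.4 against 0.08. H4c1 stood at 3.2 and 4.43 CPM in L2C G&N and 7.33 and 7.05 in L2C G&N-L, and at 0.709 to 6.35 CPM in the other libraries. All 12 H4 genes had a count somewhere, and the 9 not named here had means of 0.0125 to 1.97 CPM.

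**Figure D4:**
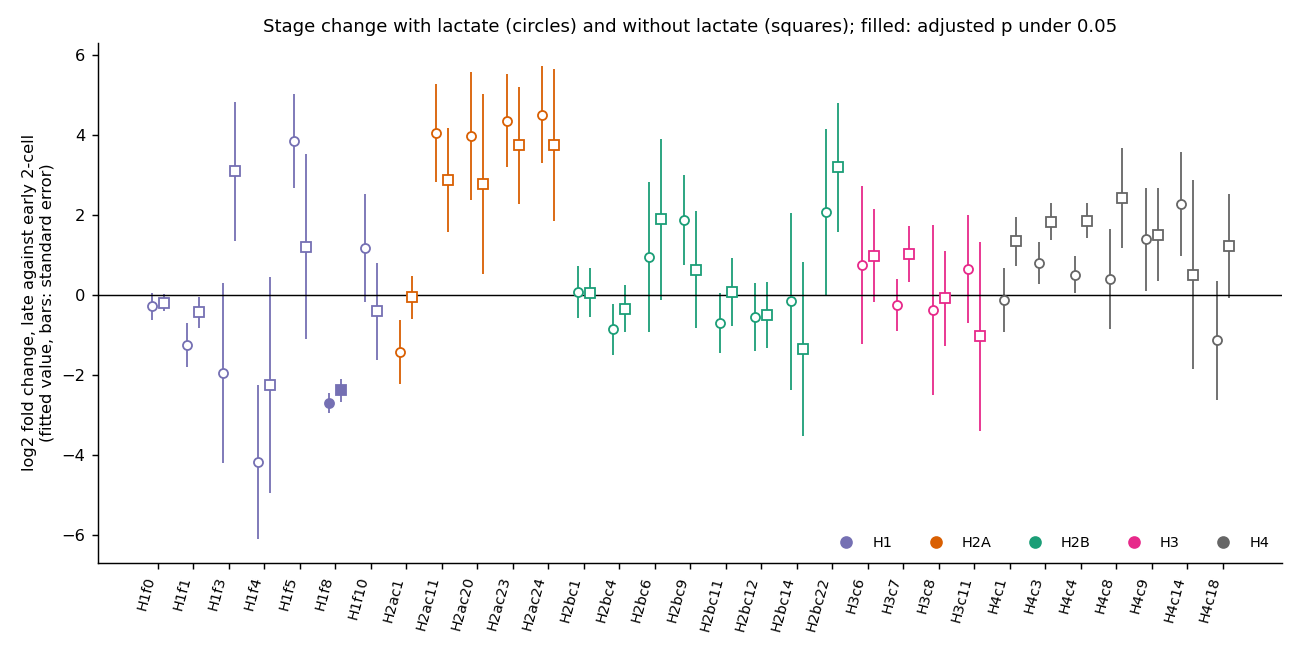
Fitted log2 fold change from the early to the late 2-cell stage, with its standard error, for the 31 members tested in both comparisons and counted in all 4 groups, with lactate (circles) and without (squares), coloured by class. Only H1f8 is filled, at -2.69 and -2.38, for an adjusted p under 0.05; H2ac11, H2ac20, H2ac23 and H2ac24 lie between 2.77 and 4.5 with wide errors.

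Summed over a class, H2A stood higher in the late than in the early libraries of the same medium, and H2B did not. The H2A sum was 7.44 ± 1.96 CPM (SD, n = 2) in E2C G&N, 8.48 ± 1.16 in E2C G&N-L, 18.2 ± 2.05 in L2C G&N and 15.8 ± 0.636 in L2C G&N-L. The H2B sum was 22.7 ± 1.13, 22.9 ± 2.26, 22.2 ± 1.7 and 26.4 ± 10.3 CPM in the same 4 groups. The H4 sum was 29.3 ± 1.98, 17.4 ± 0.778, 44.8 ± 12.2 and 59.7 ± 12 CPM. The H2A and H4 libraries of the late groups lay above the early ones of the same medium, and those of H2B overlapped. The linker sum without H1f8 was 83.5 ± 22.1, 72.1 ± 9.48, 63.5 ± 13 and 64.8 ± 7.99 CPM, with early and late libraries that overlapped. These sums are given without a test, since an exact permutation test of 2 against 2 libraries gives at least p = 0.333.

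**Figure D5:**
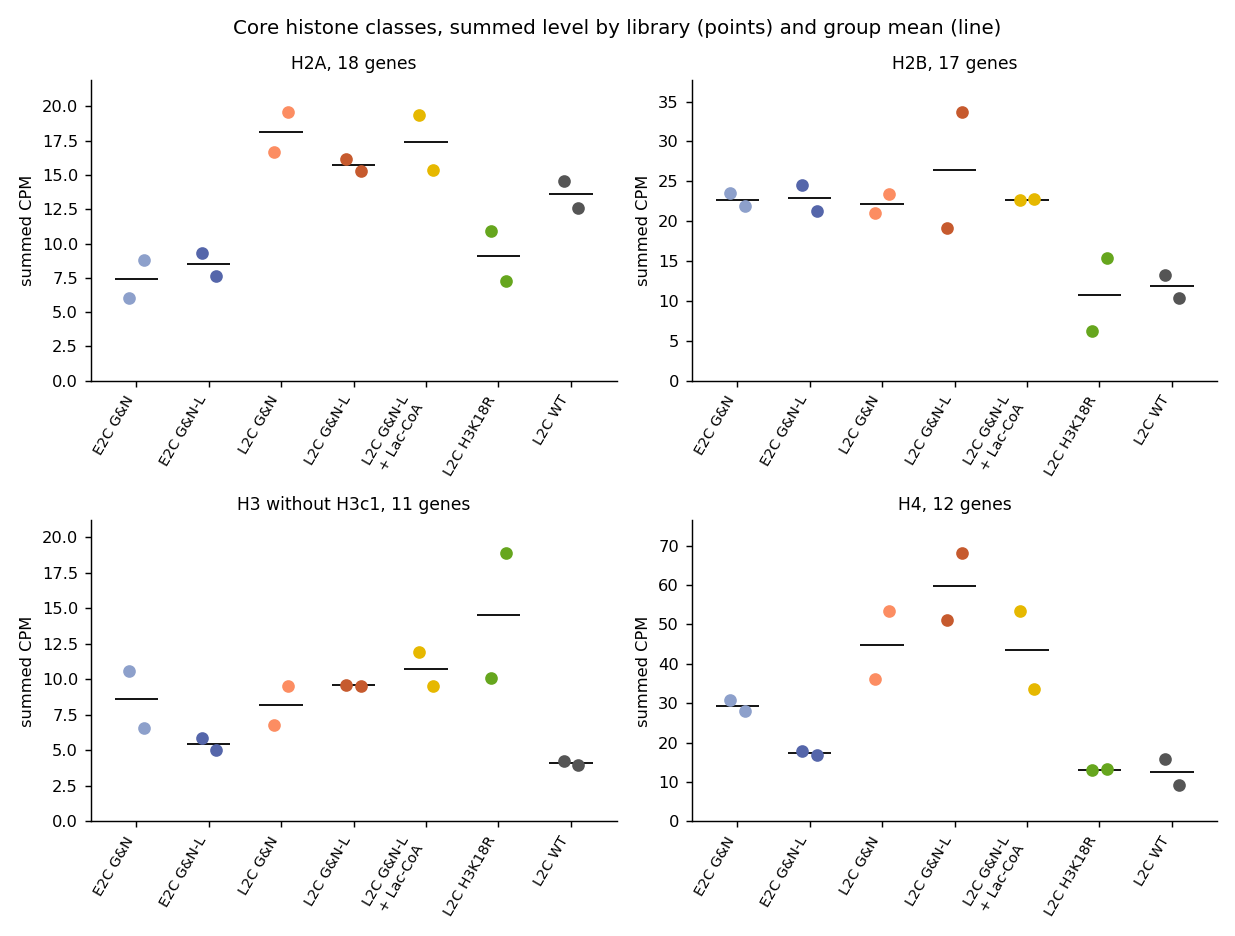
Summed level (CPM, linear axes from 0 that differ between panels) of 4 core histone classes, H3 without H3c1, in each library (points, 2 per group) with the group mean (line). H2A is at 6.06 to 9.3 CPM in early libraries and 15.3 to 19.6 in late ones with inhibitor, and H4 is at 9.34 to 15.9 CPM in the 4 libraries labelled H3K18R or WT against 33.7 to 68.2 in late ones with inhibitor.

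Withdrawal of lactate called no member at either stage. Between L2C G&N-L and L2C G&N edgeR called 0 of 39 members and 0% of 19481 genes at an adjusted p under 0.05, and DESeq2 called no member and 4.79% of all genes. By the looser criterion 1 member was higher, H1f2, at 23 and 28 counts against 0 and 0 (at least 8.8-fold higher, edgeR adjusted p = 0.34), against 4.23% of all genes that were higher and 11.9% in either direction. The 8 H4 genes tested all had positive fitted values, with a median of 0.81. Of 9 H2A genes 6 had negative values, with a median of -0.9, where 9926 of all genes had negative values. All members had a median of 0.17 against -0.02 over all genes. The next smallest p-values were those of H2ac1, given above, and H3c1, at a log2 fold change of 3.57 (SE 1.71, edgeR adjusted p = 0.526).

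Between E2C G&N-L and E2C G&N edgeR called 0 of 31 members and 0% of 17343 genes, and DESeq2 no member and 0.219% of all genes. By the looser criterion 2 members were lower: H4c4, with a log2 fold change of -1.18 (SE 0.424, edgeR adjusted p = 1), and H1f2, at 0 and 0 counts against 19 and 22 (at least 4.13-fold lower, edgeR adjusted p = 1). This was 6.45% of the members, against 2.69% of all genes that were lower and 4.5% in either direction. H4c4 lay below its lactate-fed level in both libraries without lactate. H1f8 had a log2 fold change of -0.36 (SE 0.173) and H1f3 of -4.47 (SE 2.15).

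Whether the stage change differs with lactate was tested by the interaction in the 8 libraries of these 4 groups. edgeR called 0 of 43 members and 0% of 22287 genes, DESeq2 called no member and 1.07% of all genes, and 1 member met the looser criterion, H1f2 (edgeR adjusted p = 0.639), against 7.55% of all genes. The stage change of H4c4 was higher without lactate by 1.32 on the log2 scale (SE 0.65, edgeR adjusted p = 0.665) and that of H4c3 by 1 (SE 0.673, edgeR adjusted p = 0.762). Neither difference passed the threshold.

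Injection of Lac-CoA called no member against either group. Against L2C G&N-L, edgeR called 0 of 37 members and 0% of 19610 genes, DESeq2 no member and 6.2% of all genes, and no member met the looser criterion, where 13.2% of all genes did. The smallest p was that of H1f8, with a log2 fold change of -0.95 (SE 0.418, edgeR adjusted p = 0.427), whose Lac-CoA libraries both lay below the lactate-free ones. H1f1 followed with -0.91 (SE 0.489, edgeR adjusted p = 0.533).

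Against L2C G&N, edgeR called 0 of 34 members and 0% of 19613 genes, and DESeq2 no member and 2.43% of all genes. H1f8 was the 1 member that met the looser criterion, at a log2 fold change of -0.98 (SE 0.352, edgeR adjusted p = 0.508), against 4.1% of all genes that were lower and 8.51% in either direction. Both Lac-CoA libraries lay below both L2C G&N libraries. Oocyte markers summed to 14200 and 9850 CPM in the Lac-CoA libraries. The next smallest p-values were those of H4c9, at 1.6 (SE 0.979), and H1f0, at 0.49 (SE 0.324).

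The L2C WT libraries differ from those of L2C G&N in the agents named and, by the study's description, in the injected H3 mRNA, and these cannot be told apart. edgeR called 0 of 28 members, against 4.62% of 18986 genes, while 3 members were lower by the looser criterion (10.7%, against 15.6% of all genes that were lower and 28% in either direction), and DESeq2 called the same 3, against 21.9% of all genes. H1f8 had a log2 fold change of -1.78 (SE 0.326, edgeR adjusted p = 0.0504), H4c4 of -2.77 (SE 0.522, edgeR adjusted p = 0.0527) and H1f0 as given above. The WT libraries lay below both L2C G&N libraries for all 3, which were picked by their small p. Of the 28 members 22 had negative fitted values, where 10306 of all 18986 genes tested had them. The median of the members was -1.03 against -0.16 over all genes. The H2A sum stood at 13.6 ± 1.41 CPM in WT against 18.2 ± 2.05 in L2C G&N, and the H4 sum at 12.6 ± 4.64 against 44.8 ± 12.2 in L2C G&N. Oocyte markers were at 3620 and 3700 CPM in WT and 4010 and 8250 CPM in H3K18R, with 3 of 12 lower in WT than in L2C G&N, and their part in these differences was not tested.

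Genes that act on histone mRNA and protein were counted by lists. Of 14 genes for the transcription and 3′ end processing of clustered histone genes, 1 rose and 1 fell with stage, both with and without lactate. Of all genes tested, 8.18% rose and 5.47% fell with lactate, and 5.97% rose and 5.87% fell without it. Slbp, which binds the stem-loop shown above, stood at 6420 to 7990 CPM in the 4 early libraries and 706 to 1360 CPM in the 10 late ones. It fell by 2.69 with lactate (SE 0.253, edgeR adjusted p = 0.00713) and by 2.82 without it (edgeR adjusted p = 0.00489). Ccne1, a cyclin of the entry into DNA replication, rose by 4.7 (edgeR adjusted p = 0.0143) and 3.49 (edgeR adjusted p = 0.00629).

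Of 20 histone chaperones and deposition factors, 6 fell and none rose in each stage comparison, against the 5.47% and 5.87% of all genes that fell. The list as a whole was mixed: 10 of 20 had positive fitted values with lactate and 9 of 20 without it, with medians of 0.04 and -0.34 against 0.08 and 0.15 over all genes, and by the looser criterion 4 and 5 were higher and 6 and 6 lower. With lactate, Asf1a and Asf1b, which carry H3 with H4, had log2 fold changes of -2.12 (edgeR adjusted p = 0.0106) and -1.86 (edgeR adjusted p = 0.0209). Nap1l4, a chaperone of H2A with H2B, was at -2.06 (edgeR adjusted p = 0.0133), and Supt16, a subunit of the FACT complex, at -1.79 (edgeR adjusted p = 0.0184).

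Of the variant histone genes that lie outside the clusters and are made without replication, 9 were tested, and 2 rose with lactate. H2az1 rose by 2.73 (edgeR adjusted p = 0.0153) and H2az2 by 2.31 (edgeR adjusted p = 0.0126). Without lactate H2az1 rose by 2.49 (edgeR adjusted p = 0.0103), H2az2 by 0.93 (edgeR adjusted p = 0.048), and H3f3b fell by 0.94 (edgeR adjusted p = 0.0167). H2az2 stood at 268 and 370 CPM in L2C G&N, 158 and 127 in L2C G&N-L and 280 and 288 in L2C G&N-L + Lac-CoA, with the lactate-free libraries lowest of these 3 groups. Its difference of -1.1 between L2C G&N-L and L2C G&N had an edgeR adjusted p of 0.313, and its interaction of -1.43 one of 0.564. In H3K18R against WT, H3f3a and H3f3b, which encode H3.3, had log2 fold changes of -0.04 (SE 0.25) and -0.18 (SE 0.274), with adjusted p-values of 0.999 and 0.983 by edgeR. H3f3b stood at 5270 and 3830 CPM in H3K18R and 5220 and 5080 in WT. By the study's description both groups were given H3 mRNA, with templates of H3.3 named for both. This comparison therefore cannot show whether reads of injected H3.3 mRNA were counted.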

How the data were processed

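RNA was measured in 14 libraries of 7 conditions, and groups follow the sample titles. The authors' tools, per the methods and the submitters' processing notes, were FastQC for quality, Trim Galore for trimming, HISAT2 for alignment (mm39) and featureCounts for counting. Their versions, the priming of cDNA and the strand and multimapping settings are not given in the sources used here. The deposited values are raw counts per gene, with no normalization, and all 14 columns were used.

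The main tool was edgeR 4.0.16 (limma 3.58.1, R 4.3.3). Genes were filtered by filterByExpr and scaled by TMM, each comparison on its own 4 libraries, and tested by glmQLFTest with Benjamini-Hochberg adjustment; the criterion of the study's volcano plots was counted beside it. The script was tested on simulated data. SE is the size of the log2 fold change divided by the root of F. DESeq2 1.42.0, other scalings and filters, 1 fit of all 14 libraries, a replicate block and leaving out each library were the alternatives. The members, lists and tests were chosen with earlier results of these data known. Genes named with tests were those called and, where fewer than 3 were, the 3 with the smallest p in that comparison; levels were given for all linker genes, the 3 core genes per class with the highest mean CPM and H3 genes with 10 or more counts in H3K18R. H1f5, H2ac20, H2ac22, H2bc7 and the stage changes of H1f1, H2ac1 and H2ac11, and further values of H1f0, H2ac11 and H2bc4, were added after their values were seen. Stretches of 50 bases were compared over all annotated transcripts. Same-numbered libraries did not deviate together (r = -0.0402 to 0.00709 over 25041 genes). Libraries of a group were no duplicates (chi-square per degree of freedom 47.8 to 195). No source used here names molecular identifiers, so that PCR copies count as reads and limits from counts cover counting error only.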

Additional observations from a re-analysis of the deposited data

Results flagged for a closer look

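Members were scanned for stage changes in opposite directions with and without lactate, with no overlap of the libraries in CPM. An interaction at an unadjusted p under 0.05 was also taken. This flagged H1f2 and H1f10, and the share of all genes with such a pattern was not counted. Opposite signs of the fitted values alone were not flagged, as for H2bc11 at -0.7 with lactate and 0.07 without. H1f2 had 19 and 22 counts in E2C G&N and 0 and 0 in L2C G&N, at least 5.78-fold lower, whereas without lactate it had 0 and 0 counts in E2C G&N-L and 23 and 28 in L2C G&N-L, at least 6.28-fold higher. The interaction had an edgeR adjusted p of 0.639, so that it was not past the threshold. H1f10 had 24 and 7 counts in E2C G&N, 31 and 26 in L2C G&N, 16 and 10 in E2C G&N-L and 11 and 15 in L2C G&N-L, and its interaction had an edgeR adjusted p of 0.985.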

How the results depend on the processing

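edgeR called 1 member in the stage change with lactate, 1 without it, 1 in H3K18R against WT and 0 in WT against G&N. The shares over all genes were 13.7%, 11.8%, 0.00565% and 4.62%. DESeq2 called 6, 3, 3 and 3, against 30.5%, 27.9%, 0.678% and 21.9% of all genes. Requiring at least 10 counts in every library gave 3, 3, 0 and 2 (all genes 25.8%, 23.4%, 0.00786% and 22.8%), where H3c1 was removed by the filter itself. One fit of all 14 libraries gave 3 with lactate (H1f8, H2ac11 and H2ac23) and 2 in WT against G&N (all genes 13.6% and 5.12%). Library totals without TMM gave 3 without lactate and 1 in WT against G&N (all genes 13.5% and 5.57%). No filter gave 2 and 3 in the comparisons without lactate and of WT against G&N (all genes 10.5% and 13%). Leaving out 1 library each gave 0 to 1, 1 to 1, 0 to 1 and 0 to 0. H1f8 was not called with lactate without L2C G&N replicate 1 or 2, nor H3c1 without L2C WT replicate 2. In the other 5 tests 0 members were called under every alternative. The replicate numbers did not pair the libraries, and the replicate block gave 1, 1, 1 and 1 calls, the last for H1f8 in WT against G&N (edgeR adjusted p = 0.0471). The shares over all genes with the block were 9.46%, 7.48%, 0.00565% and 4.23%. No named gene reversed, 24 values passed the threshold under an alternative only, and 3 under the main setting only. Library totals moved the median log2 fold change of all genes from 0.08 to 0.46 with lactate and from 0.15 to 0.51 without, and the share of higher genes among those called from 59.9% to 76.4% and from 50.4% to 72.6%, and the log2 ratio of the H2B sums with lactate from -0.03 to 0.28. The causes were not tested. How far depth limits the scarce members was not measured.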
